A study of Mus musculus with 6 samples.

Results

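Whole lung holds blood as well as lung tissue, and red cells carry so much globin mRNA that even a little blood shows in a lung library. To describe how much red cell RNA each lung held, 7 hemoglobin and red cell genes were followed in every library of R/R and WT mice. They were chosen by name, and are the α-globin genes Hba-a1 and Hba-a2, the β-globin genes Hbb-bs and Hbb-bt, and the red cell genes Alas2, Bpgm and Slc4a1. All 7 of them were found among the 56262 genes of the count table, and all 7 were among the 17120 genes with enough counts to be tested.

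R/R mice are homozygous for a knock-in of RBM47 K329R;K332R, in which 2 lysines of the RNA-binding protein RBM47 are replaced by arginine so that the ubiquitin-like protein ISG15 cannot be attached there. WT mice were littermates without the knock-in. Bulk RNA-seq was made from 3 R/R and 3 WT lungs at 8 weeks of age, without any treatment, on a C57BL/6 background. The sex of the mice is not given in the sample labels, and whether these lungs were flushed of blood is not stated in the sources used here. The knock-in is present in every cell of the animal, blood cells included.

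Hemoglobin is built from a pair of α chains and a pair of β chains, each holding a heme. ALAS2 makes the first intermediate of heme in erythroid cells, bisphosphoglycerate mutase (Bpgm) makes the small molecule that loosens the hold of hemoglobin on oxygen, and band 3 (Slc4a1) exchanges chloride for bicarbonate across the red cell membrane and anchors its skeleton. Most of these mRNAs are made in the bone marrow, and young red cells, the reticulocytes, still carry them into the circulation.

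The coding sequences of the paired globin genes are nearly the same, which bears on every value below. The coding sequence of Hba-a1 and that of Hba-a2 differ at 1 of 429 bases, written C381T with the base of Hba-a1 first and positions counted from the A of the start codon. That of Hbb-bs and that of Hbb-bt differ at 1 of 444 bases, C417T. The 60 coding bases around each difference are shown in the GENCODE M21 transcripts of GRCm38, with the differing base in capitals, because only reads that cover such a base or the ends outside the coding sequence tell the copies apart.
Hba-a1: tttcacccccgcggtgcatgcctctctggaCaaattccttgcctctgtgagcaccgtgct
Hba-a2: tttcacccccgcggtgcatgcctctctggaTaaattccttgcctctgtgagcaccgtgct
Hbb-bs: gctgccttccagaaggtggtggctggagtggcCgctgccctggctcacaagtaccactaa
Hbb-bt: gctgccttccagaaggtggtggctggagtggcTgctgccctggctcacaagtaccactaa
Of all stretches of 150 bases, the read length, 48.4% in the Hba-a1 transcript and 65.7% in the Hba-a2 transcript also occurred in another globin transcript. The shares were 58.7% for Hbb-bs and 50.7% for Hbb-bt. Read pairs that mapped to several places were not counted, so the level of each globin gene is a lower limit and its split between copies is uncertain.

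The globin genes sit in clusters. On GRCm38, Hba-a1 (ENSMUSG00000069919) lies on the plus strand at chr11:32283511-32284465 and Hba-a2 (ENSMUSG00000069917) on the plus strand at chr11:32296489-32297298. Hbb-bs (ENSMUSG00000052305) lies on the minus strand at chr7:103826534-103828096, and Hbb-bt (ENSMUSG00000073940) on the minus strand at chr7:103812524-103813996. The main transcript of each of the 4 has 3 exons. Bpgm lies on the plus strand at chr6:34476207-34505613, Slc4a1 on the minus strand at chr11:102348824-102366203, and Alas2 on the plus strand at chrX:150547375-150570638. Alas2 overlaps Apex2 and Mir3620 on the opposite strand, and since strand was not used in counting, reads of these genes cannot be told apart where they overlap.

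The 150 bases before the RefSeq start site (GRCm38.p6) are shown for Hba-a1, Hbb-bs, Hbb-bt and Alas2, as a description of their sequence. Capitals mark matches, on either strand, to the NF-Y string CCAAT, the KLF1 string CCACACCC, the GATA string AGATAA and the TATA box string TATAAA, and no match overlapped another.
Hba-a1, chr11:32283522-32283671, plus strand: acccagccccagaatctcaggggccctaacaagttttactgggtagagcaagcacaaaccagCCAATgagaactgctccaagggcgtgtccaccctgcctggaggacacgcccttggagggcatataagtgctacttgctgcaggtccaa
Hbb-bs, chr7:103827929-103828078, minus strand: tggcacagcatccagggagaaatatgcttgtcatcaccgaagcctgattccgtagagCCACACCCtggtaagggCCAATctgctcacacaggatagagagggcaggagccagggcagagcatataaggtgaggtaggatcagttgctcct
Hbb-bt, chr7:103813924-103814073, minus strand: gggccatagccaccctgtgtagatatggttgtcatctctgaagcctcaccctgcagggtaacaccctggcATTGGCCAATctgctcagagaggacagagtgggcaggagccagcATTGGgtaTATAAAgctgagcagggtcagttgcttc
Alas2, chrX:150547267-150547416, plus strand: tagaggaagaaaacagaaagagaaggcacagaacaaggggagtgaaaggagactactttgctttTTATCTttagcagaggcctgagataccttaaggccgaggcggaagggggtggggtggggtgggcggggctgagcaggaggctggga
CCAAT was found in 5 of the 6 members with an entry, namely the 4 globin genes and Bpgm, and in 24.5% of 32817 windows of this length before other starts. CCACACCC was found only before Hbb-bs among the members (2.18% of all windows), AGATAA only before Alas2 (5.65%), and TATAAA only before Hbb-bt (7.58%). When shifted by 3 bases, the windows of Hba-a1 and Hba-a2 were identical over 147 bases, whereas those of Hbb-bs and Hbb-bt matched at 71.1% of 149 bases. These matches describe the letters and do not show binding.

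Total counts ranged from 16501092 to 18141067 per lung, and TMM scaling factors were all near 1, so depth differed little between genotypes. Between R/R and WT lungs, 300 of 17120 genes passed an adjusted p of 0.05 (edgeR's quasi-likelihood test with Benjamini-Hochberg adjustment), 1.75% of those tested, and 189 of them, 1.1%, were lower in R/R lungs. The lung markers Sftpc and Scgb1a1, which mark alveolar type 2 and club cells, were at 9994 to 13769 and at 8886 to 14469 CPM, the counts scaled to library size. With only 3 lungs per genotype, p-values set the difference between genotypes against a spread estimated from these few animals. This count leaned on single lungs, since leaving out 1 lung gave between 65 and 621 called genes.

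Of the 7 genes, 1 was called between R/R and WT lungs, Hba-a1, and it was lower in R/R, against 1.1% of all tested genes called lower. All 7 had a lower mean in R/R lungs, with log2 fold changes from -1.67 to -0.19 and a median of -0.67, whereas the median over all genes was 0.00. In 3 of the 7, Hba-a1, Hba-a2 and Hbb-bs, every R/R lung lay below every WT lung. Such a gap was found in 18.7% of all tested genes in either direction, and in 9.47% in this direction. In lung RNA, fewer red cells and less RNA per red cell cannot be told apart.

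**Figure D1:**
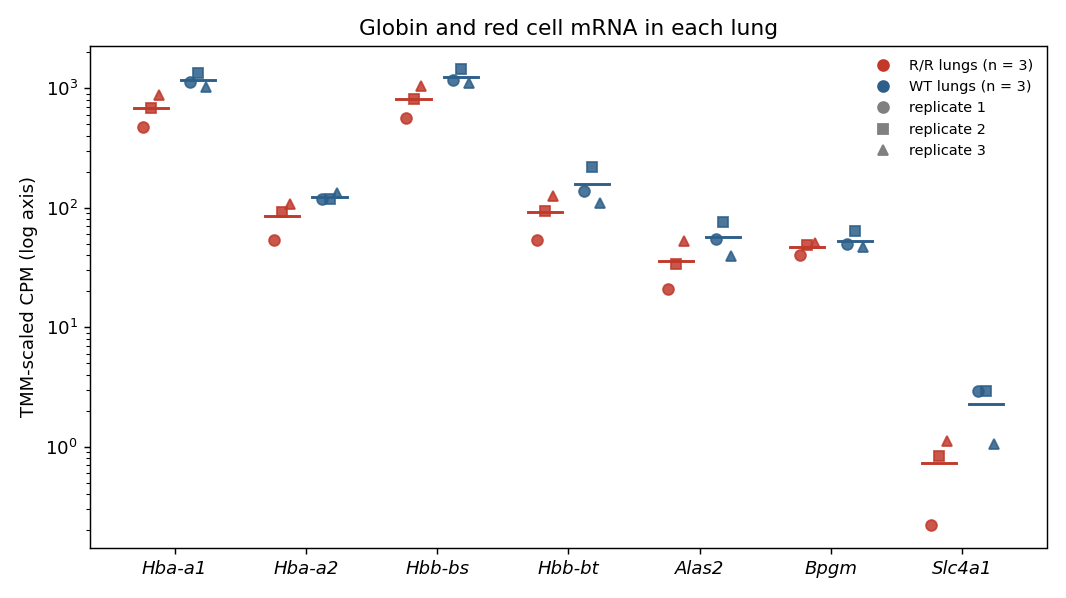
TMM-scaled CPM (y axis, log scale) of the 7 genes in each of the 3 R/R and 3 WT lungs, with a bar at the mean of each genotype and a symbol for each replicate. Within each gene, R/R replicate 1 was the lowest lung, for all 7 genes, and CPM is not scaled to gene length, so heights are not compared between genes.

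Hba-a1 was at 475, 686 and 877 CPM in the R/R lungs, in the order of their replicate numbers, and at 1124, 1337 and 1035 CPM in the WT lungs. The highest R/R lung thus stayed below the lowest WT lung, by a factor of 1.18. The level was 679 ± 201 CPM in R/R and 1165 ± 155 CPM in WT (SD over 3 lungs each), a log2 fold change of -0.78 (SE 0.17, adjusted p = 0.0478 by edgeR's quasi-likelihood test). The exact two-sided permutation test gave p = 0.1, the smallest that 3 lungs against 3 can give. The call sits at the threshold and was lost with DESeq2 (adjusted p = 0.0870), without TMM (0.0508), with a filter of 1 CPM in 3 lungs (0.0534), and when 1 lung was left out, be it replicate 1 (0.0567) or 2 (0.169) of R/R or replicate 1 (0.131) or 2 (0.153) of WT. Its log2 fold change kept its sign in all of these, between -1.01 and -0.58 with 1 lung left out.

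Hba-a2 encodes an α chain from the second copy of the gene. It was at 53.7, 92.4 and 108 CPM in R/R and at 119, 119 and 133 CPM in WT lungs. The WT lungs were close to each other and all above the R/R lungs, which spread more widely. The log2 fold change of -0.55 (SE 0.18) did not pass (adjusted p = 0.176 by edgeR's test; exact permutation p = 0.1). With the counts of both α copies summed as a single gene, the log2 fold change was -0.76 (SE 0.17, adjusted p = 0.0523 by edgeR's test), just outside the threshold.

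Hbb-bs, the β-globin gene counted at the higher level per length, was at 569, 811 and 1050 CPM in the R/R lungs, in the order of their replicate numbers, and at 1182, 1459 and 1101 CPM in the WT lungs. Here R/R replicate 3 and WT replicate 3 nearly met. Its level was 810 ± 241 CPM in R/R and 1247 ± 188 CPM in WT (SD over 3 lungs each), with a log2 fold change of -0.62 (SE 0.18) that did not pass (adjusted p = 0.115 by edgeR's test; exact permutation p = 0.1). Only without R/R replicate 3 among the lungs left out did it pass (log2 fold change -0.86, adjusted p = 0.0400).

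Hbb-bt, the β-globin gene counted at the lower level per length, was at 53.9, 94.4 and 126 CPM in R/R and at 139, 221 and 111 CPM in WT lungs. The genotypes overlapped, because R/R replicate 3 was above WT replicate 3. Its log2 fold change was -0.78 (SE 0.27, adjusted p = 0.208 by edgeR's test; exact permutation p = 0.2). This point estimate equals that of Hba-a1, but its spread was wider. Summed with Hbb-bs, the β genes gave -0.64 (SE 0.19, adjusted p = 0.126 by edgeR's test).

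As counted, the 4 globin genes differed greatly in level. Pairs mapping to several places were left out and the lengths were not corrected for this, so the gap between copies is uncertain. Per kilobase of the gene's exon length in the count table, Hbb-bs was at 1055 ± 313 CPM per kb in R/R and 1624 ± 244 in WT lungs, and Hba-a1 at 837 ± 248 and 1435 ± 191 (SD, n = 3 each). Hbb-bt was at 130 ± 51.5 and 223 ± 81.4 CPM per kb and Hba-a2 at 127 ± 41.8 and 186 ± 12.2. Neighbours in this order, Hbb-bs with Hba-a1 and Hbb-bt with Hba-a2, overlapped in their ranges within a genotype. Compared lung by lung, Hbb-bs was above Hba-a1 per kb in every lung, whereas Hbb-bt and Hba-a2 changed order between lungs.

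Alas2, the erythroid enzyme of heme synthesis, was at 20.8, 33.5 and 52.9 CPM in the R/R lungs, in the order of their replicate numbers, and at 55.1, 75.5 and 39.6 CPM in the WT lungs. WT replicate 3 lay below R/R replicate 3, so the genotypes overlapped. The log2 fold change was -0.67 (SE 0.28, adjusted p = 0.300 by edgeR's test; exact permutation p = 0.2). Per length, Alas2 was at 14.9 ± 6.72 CPM per kb in R/R and 23.6 ± 7.49 in WT lungs (SD, n = 3 each).

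Bpgm was the steadiest of the 7, at 40.1, 48.8 and 51.1 CPM in R/R and at 49.4, 63.6 and 46.6 CPM in WT lungs. Only R/R replicate 1 lay below all WT lungs and only WT replicate 2 above all R/R lungs. Its log2 fold change was -0.19 (SE 0.12, adjusted p = 0.524 by edgeR's test; exact permutation p = 0.5). From its lowest to its highest lung Bpgm differed 1.59-fold, against 2.81-fold for Hba-a1 and 3.62-fold for Alas2.

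Slc4a1, which encodes band 3, was scarce, with 4, 14 and 19 counts in R/R replicates 1, 2 and 3 and 48, 53 and 18 counts in WT replicates 1, 2 and 3. These correspond to 0.222, 0.836 and 1.12 CPM and to 2.91, 2.92 and 1.05 CPM. WT replicate 3 lay among the R/R lungs, apart from the other WT lungs. The log2 fold change was the largest of the 7 in size, -1.67 (SE 0.51), but did not pass (adjusted p = 0.143 by edgeR's test; exact permutation p = 0.2). Without WT replicate 3 it was -2.01 and passed (adjusted p = 0.0255).

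The 7 genes shared their lowest lung but not the whole order of lungs. R/R replicate 1 was the lowest lung for 7 of 7 genes, and WT replicate 2 was the highest for 6 of 7, the exception being Hba-a2, which was highest in WT replicate 3. In 4 of the 7, Hbb-bt, Alas2, Bpgm and Slc4a1, R/R replicate 3 was above WT replicate 3. Averaged over the 7 genes, the deviation from each gene's mean log2 CPM was -1.03, -0.26 and 0.10 in R/R replicates 1, 2 and 3 and 0.41, 0.70 and 0.07 in WT replicates 1, 2 and 3. These averages nearly meet at R/R replicate 3 and WT replicate 3. As a description over 6 lungs of both genotypes, Pearson's r between pairs of members ran from 0.65 (Hba-a2 with Bpgm) to 0.99 (Hba-a1 with Hbb-bs), and Spearman's rho, which compares the order of lungs, was 0.26 and 1 for these same pairs.

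**Figure D2:**
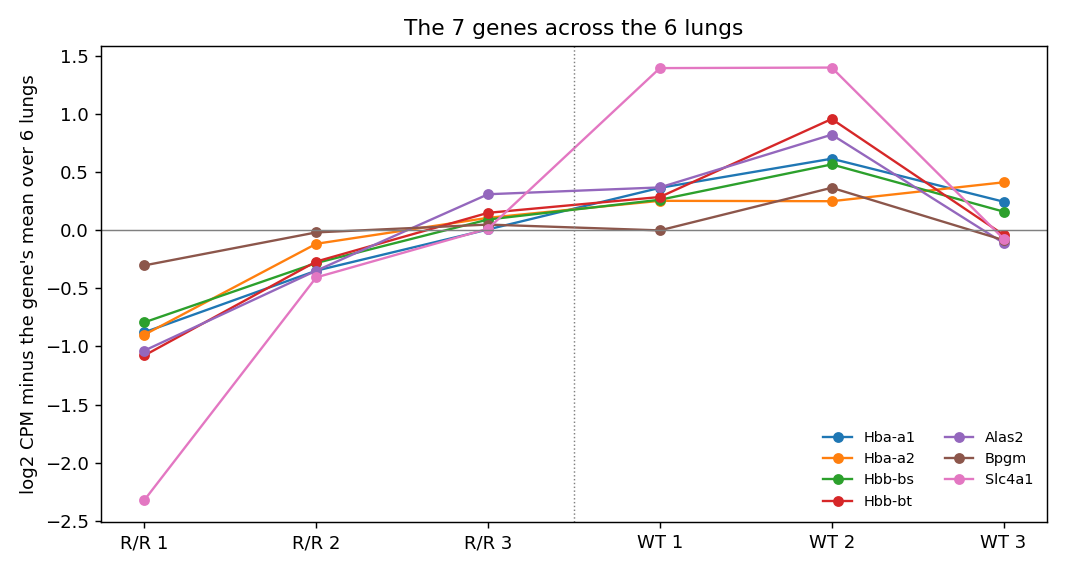
Log2 CPM of each of the 7 genes minus its mean over the 6 lungs (y axis) in each lung (x axis), where lines only join the points of a gene. R/R replicate 1 was lowest throughout, and the range was widest for Slc4a1, which had 4 to 53 counts.

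As a share of all counts, the 7 genes together held 0.121% in R/R replicate 1, 0.175% in R/R replicate 2 and 0.229% in R/R replicate 3. In WT replicates 1, 2 and 3 they held 0.267%, 0.328% and 0.247%. The exact Clopper-Pearson 95% intervals were narrow, for example 0.227 to 0.232% in R/R replicate 3 and 0.244 to 0.249% in WT replicate 3, and cover counting error only. The spread between lungs of a genotype was thus far above counting error. Globins made up nearly all of it, with 20787 to 36759 globin counts in R/R and 40723 to 56918 in WT lungs.

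Ratios within a lung compare the globins with each other and leave out their total amount. Counts of α globins over counts of β globins were 0.849, 0.860 and 0.837 in R/R replicates 1, 2 and 3 and 0.942, 0.867 and 0.964 in WT replicates 1, 2 and 3. All R/R ratios lay below all WT ratios, by a small margin against WT replicate 2; this ratio was singled out after its values were seen and was not tested. Hba-a1 over Hba-a2 counts were 8.84, 7.42 and 8.13 in R/R and 9.41, 11.2 and 7.76 in WT lungs, which overlapped. Hbb-bs over Hbb-bt counts were 10.6, 8.59 and 8.32 in R/R and 8.52, 6.61 and 9.95 in WT lungs, which overlapped too.

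Alas2 and Slc4a1 were also set against the globins. There were 18.1, 19.9 and 24.5 Alas2 counts per 1000 globin counts in R/R lungs and 21.5, 24.1 and 16.6 in WT lungs, and the means of 20.8 ± 3.29 and 20.7 ± 3.78 (SD, n = 3 each) differed by less than the spread. Slc4a1 was at 0.192, 0.497 and 0.517 counts per 1000 globin counts in R/R and at 1.14, 0.931 and 0.442 in WT lungs, where again WT replicate 3 lay within the range of R/R.

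**Figure D3:**
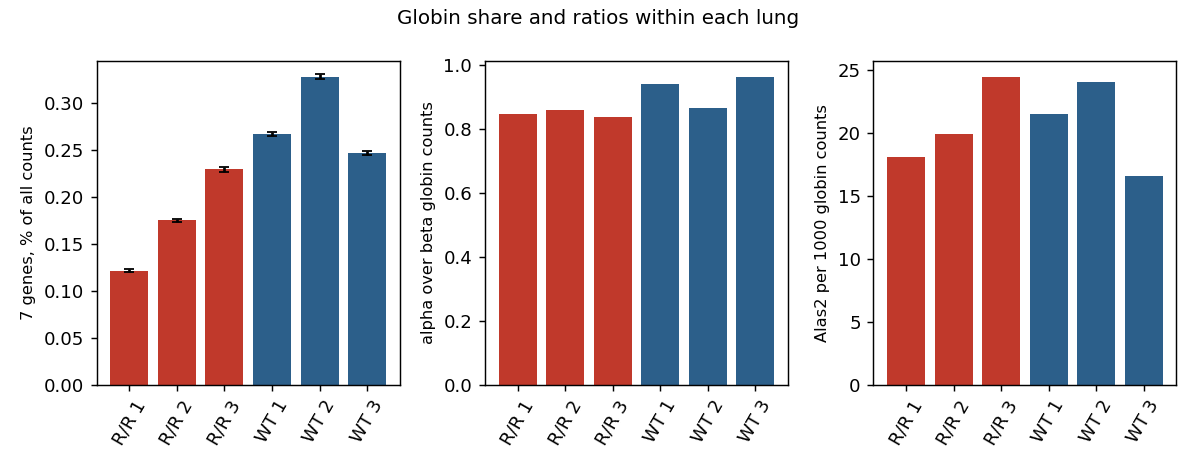
Bars for each lung from 0, showing the 7 genes as a percentage of all counts (left, with 95% Clopper-Pearson intervals), the ratio of α to β globin counts (middle) and Alas2 counts per 1000 globin counts (right), for R/R (red) and WT (blue). The share ran from 0.121% to 0.328%, while Alas2 per 1000 globin counts ran from 16.6 to 24.5 with the genotypes overlapping.

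Globin genes of the embryo were at or near 0. Hba-x had 1 count over the 6 lungs, and Hbb-y had 2 counts in R/R replicate 3 and 3 in WT replicate 2. Hbb-bh0, Hbb-bh1 and Hbb-bh2 had 0 counts in every lung, which allows up to 3 counts per lung, or 0.165 to 0.182 CPM. The theta globin copies Hbq1a and Hbq1b had 0 counts in R/R replicates 1 and 2 and at most 6 in any lung. None of the 3 nearest tested genes on either side of the α cluster or the β cluster was called by edgeR's test, and 3 of these 12 had an unadjusted p under 0.05. They lay 8693 to 232432 bases from the α cluster and 29438 to 1229513 bases from the β cluster, so many were not close. Nearest to the α cluster, Nprl3, which contains enhancers of the cluster in its introns, was at a log2 fold change of 0.10 (SE 0.10, adjusted p = 0.722 by edgeR's test). Farther out, Sh3pxd2b was at -0.34 (SE 0.08, adjusted p = 0.0675 by edgeR's test).

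Other genes of the red cell were taken from lists of heme synthesis, the red cell membrane, its cytosol, and erythroid transcription and iron uptake. Of 73 such genes in the table besides the 7, 48 were tested. None was called by edgeR, DESeq2 or limma-voom, and 9 had an unadjusted edgeR p under 0.05, against 2433 of all 17120 genes. Their median log2 fold change was -0.02, with 26 below and 22 above 0. With WT replicate 3 left out, 1 of them passed, the transferrin receptor Tfrc (log2 fold change 0.42, adjusted p = 0.0248 by edgeR's test).

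**Figure D4:**
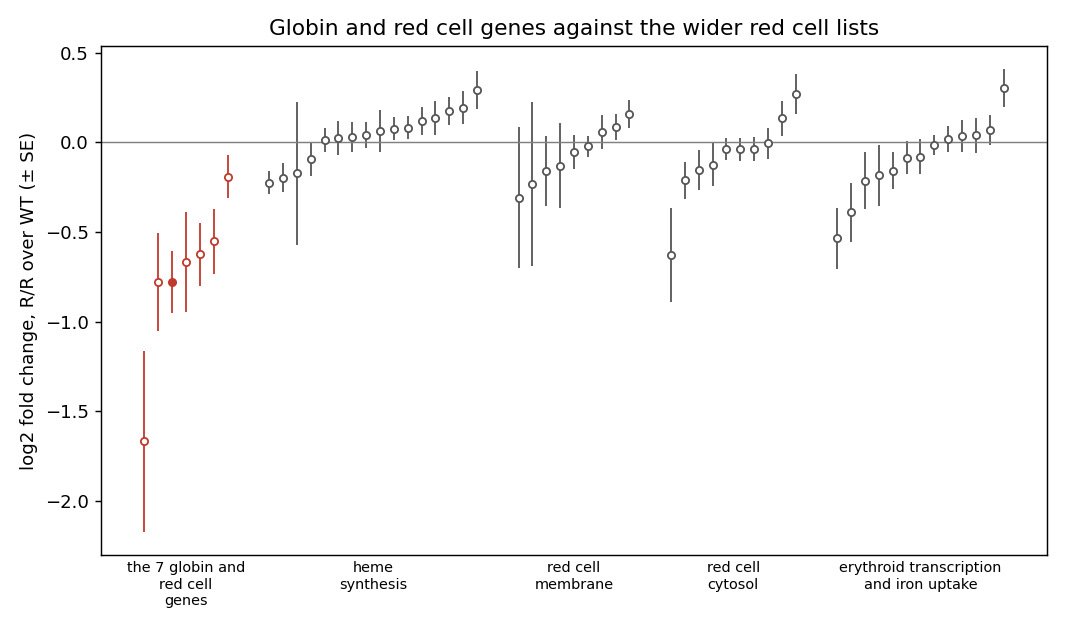
Log2 fold change of R/R over WT with its standard error for the 7 genes (red) and for the 48 tested genes of 4 wider red cell lists (grey), each list sorted by value. Only Hba-a1 is filled, for an adjusted p under 0.05, and the wider genes lay between -0.63 and 0.30.

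Heme synthesis had 16 tested genes besides Alas2, with a median log2 fold change of 0.05. Its genes with the highest level per length, Tmem14c, Alas1 and Slc25a39, are not particular to red cells. Tmem14c, which carries porphyrin in mitochondria, was at 61.3 CPM per kb in R/R and 57.9 in WT lungs. Alas1, the form of the first enzyme in tissues other than red cells, was at a log2 fold change of 0.29 (SE 0.10, adjusted p = 0.216 by edgeR's test), opposite in sign to Alas2. Slc25a39 was at 0.08 (SE 0.06). Fam210b, named after its values were seen for the lowest adjusted p of these lists, was at -0.22 (SE 0.07, adjusted p = 0.129 by edgeR's test).

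In the membrane list, 9 genes besides Slc4a1 were tested, with a median of -0.05. Those with the highest level per length, Mpp1, Gypc and Epb41, which encode parts of the membrane skeleton and its anchors in many cells, were at log2 fold changes of 0.08, 0.06 and -0.02. The other 9 of the 18 listed genes did not pass the filter on low counts.

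The cytosol list had 10 tested genes besides Bpgm, with a median of -0.04. Its highest genes per length were Bnip3l, needed to clear mitochondria from reticulocytes, Car2, a carbonic anhydrase, and Prdx2, a peroxiredoxin, at log2 fold changes of -0.03, -0.15 and -0.04.

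Erythroid transcription and iron uptake had 13 tested genes, with a median of -0.08. Of the 13, 8 were below and 5 above 0. Kit, Ldb1 and Lmo2 had the highest level per length and were at 0.07, -0.02 and -0.08. In 2 of the 13, Nfe2 and Bcl11a, every R/R lung lay below every WT lung, as in 9.47% of all tested genes. Named after their values were seen, they were at -0.39 (SE 0.16, adjusted p = 0.308) and -0.53 (SE 0.17, adjusted p = 0.159), by edgeR's test. Markers of red cell precursors were not all scarce. Tfrc had 1023 to 1689 counts per lung, and its log2 fold change was 0.30 (SE 0.11, adjusted p = 0.201 by edgeR's test). Gata1, the master factor of the lineage, had 4, 8 and 8 counts in R/R and 16, 14 and 10 in WT lungs, and Klf1, which activates adult β globin, had between 1 and 6 counts in every lung. Epor, the erythropoietin receptor, was at 7.31, 7.52 and 5.53 CPM in R/R and at 8.61, 7.82 and 7.19 CPM in WT lungs (log2 fold change -0.21, SE 0.16, adjusted p = 0.618 by edgeR's test).

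Genes that clear hemoglobin and heme or store iron were not called either (0 of 13 by edgeR's test, with 6 at an unadjusted p under 0.05). Their median log2 fold change was 0.14, with 11 of 13 above 0. Ftl1 and Fth1, the ferritin chains, were at 0.24 (SE 0.06, adjusted p = 0.0673) and 0.29 (SE 0.08, adjusted p = 0.104), by edgeR's test, with every R/R lung above every WT lung for both. Hp, the plasma protein that binds free hemoglobin, was at 0.09 (SE 0.14, adjusted p = 0.845 by edgeR's test). Hmox1, which breaks down heme and is induced by it, was at 0.03 (SE 0.09, adjusted p = 0.933 by edgeR's test).

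Other blood cells were set beside the red cell genes. As means of deviations, 11 neutrophil genes averaged -0.18, -0.43 and -0.55 in the R/R lungs and 0.70, -0.31 and 0.76 in the WT lungs, in replicate order. WT replicate 2, the lung with the most globin, was thus among the lower lungs for neutrophil genes. S100a8 and Csf3r show this, at 9.48 and 31.8 CPM in WT replicate 2 against 35.4 to 40.1 and 68.8 to 73.4 CPM in the other WT lungs. None of the 11 was called (edgeR's test; 8 had an unadjusted p under 0.05), and all 11 log2 fold changes were below 0.

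On average, platelet genes had another order of lungs. Their average was -0.32, -0.18 and 0.50 in R/R replicates 1, 2 and 3 and -0.04, 0.04 and 0.00 in WT replicates 1, 2 and 3. The median log2 fold change of the 15 was 0.08, and none was called (edgeR's test; 2 had an unadjusted p under 0.05). Of the 15, 7 were below and 8 above 0. Pf4, the platelet factor 4, was at 6.59, 7.22 and 6.76 CPM in R/R and at 5.21, 6.28 and 5.84 CPM in WT lungs. Itga2b went the other way, at 7.81, 8.54 and 14.8 CPM in R/R and at 14.9, 15.8 and 12.2 CPM in WT lungs. Its log2 fold change was -0.47 (SE 0.21, adjusted p = 0.341 by edgeR's test). Itga2b was lowest in R/R replicate 1 and highest in WT replicate 2, as was the average of the globin and red cell genes. Ppbp was at a log2 fold change of 0.24 (SE 0.22). R/R replicate 3 stood highest for Gp9, at 2.76 CPM against 0.554 to 1.76 CPM in the other lungs.

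Of 14 B cell genes, 7 were called lower in R/R lungs and 13 had every R/R lung below every WT lung, with a median log2 fold change of -0.59. Ighm, the heavy chain of IgM, was at 87.4, 90.6 and 71.6 CPM in R/R and at 138, 119 and 126 CPM in WT lungs (log2 fold change -0.61, SE 0.09, adjusted p = 0.00893 by edgeR's test). The order of lungs was another one, since R/R replicate 3 and not R/R replicate 1 was lowest. Of 16 T cell genes, 1 was called, Tcf7 (log2 fold change -0.51, SE 0.08, adjusted p = 0.00918 by edgeR's test), and all 16 were below 0. No call came from 12 NK cell genes (edgeR's test; 1 had an unadjusted p under 0.05; median 0.18), where WT replicate 2 was lowest at -0.74.

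**Figure D5:**
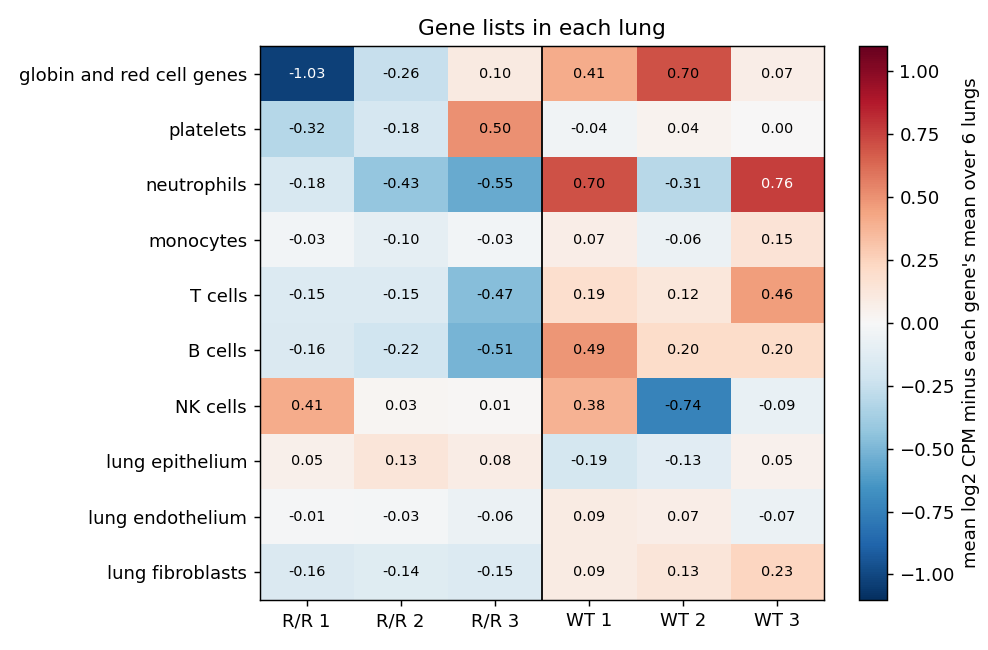
Mean log2 CPM of each gene list in each lung, after subtracting each gene's mean over the 6 lungs (colour and printed value), with R/R lungs to the left of the line. The 7 globin and red cell genes were, on average, lowest in R/R replicate 1 (-1.03) and highest in WT replicate 2 (0.70), whereas neutrophil genes were highest in WT replicates 1 and 3 and B cell genes lowest in R/R replicate 3 (-0.51).

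Genes of the lung tissue itself came last. Endothelial genes, which line the vessels that hold the blood, averaged -0.01, -0.03 and -0.06 in R/R and 0.09, 0.07 and -0.07 in WT lungs, with 0 of 12 called (edgeR's test; 2 at an unadjusted p under 0.05). Cldn5 and Pecam1 were at log2 fold changes of -0.13 (SE 0.07) and -0.04 (SE 0.08). Epithelial genes had a median of 0.22, with 0 of 12 called by edgeR's test and 6 at an unadjusted p under 0.05. Of 12 fibroblast genes, 2 were called lower, Mfap4 and Eln. Of 14 monocyte genes, 2 were called higher, Chil3 and Nr4a1, with a median of -0.16. What part blood volume, blood composition or tissue makeup had in the red cell values was not tested.

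The genes most like the 7 across the lungs were sought among 14191 genes whose mean log2 CPM was 1 or more. Over the 6 lungs, the 10 with the highest Pearson's r to the members' average included Speg, AI506816, Ccnd2, Ldb3, Taf4, Ube2l6, Cttn and Strbp, with r of the 10 from 0.977 to 0.996. None of the 10 was called (edgeR's test; 5 had an unadjusted p under 0.05). Ldb3, a protein of the muscle Z-disc, was at 2.83, 4.66 and 6.17 CPM in R/R and at 6.67, 9.92 and 5.84 CPM in WT lungs, a range like that of the globins. Ube2l6, the conjugating enzyme for ISG15, also belongs to the red cell cytosol list above. It was at 30.1, 36.7 and 40.8 CPM in R/R and at 42.3, 43.7 and 38.5 CPM in WT lungs (log2 fold change -0.21, SE 0.10, adjusted p = 0.394 by edgeR's test). They are the extreme of 14191 values over lungs of both genotypes and are given as a description.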

How the data were processed

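RNA-seq of 3 R/R and 3 WT lungs was analysed. According to the labels, RNA was taken with a Qiagen kit and libraries with a SMARTER kit, in paired reads of 150 bases. The authors aligned reads with HISAT2 2.1.0 (mm10, GRCm38, named in the submitters' processing notes) and deposited raw counts, where a gene's value is its number of read pairs, from featureCounts 2.0.1 per the file header, without strand and without pairs mapping to several places. One of the 6 deposited columns was recorded as an estimated count because the automatic check misread the first line; its values are whole counts and none was rounded.

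Symbols and coordinates came from GENCODE M21 (GRCm38), which matched 55141 of 56262 identifiers. Counts were filtered with filterByExpr (minimum count 10, total 15), scaled by TMM and compared with edgeR 4.0.16 (glmQLFit, glmQLFTest; R 4.3.3), with adjusted p over 17120 genes and a call at 0.05. Exact two-sided permutation tests used log2 CPM with a prior count of 0.5. The biological coefficient of variation was 8.62%. CPM levels are means over lungs, and levels of different genes were compared only per kilobase. The code was tested on simulated data. Of the replicates, no pair agreed within sampling noise (chi-square per degree of freedom from 5.64 to 9.02 within genotypes). Intervals cover counting error only, and 3 counts correspond to 0.165 to 0.182 CPM.

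The 7 members and all lists were chosen with earlier results of these data known. Named genes were the 7 members, other globin genes with at least 1 count, the 3 highest genes per length and all called genes of each red cell list, defining markers of other lists, and the 10 genes most like the members; exceptions are marked, and some genes that the rule names are not reported here. Ahsp, Hbb-b1 and Hbb-b2 were not analysed here. Alternatives were DESeq2 1.42.0, limma-voom (limma 3.58.1), other scalings, filters and thresholds, summed copies, protein-coding counts as denominator, the replicate number as a block, and leaving out each lung.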

Additional observations from a re-analysis of the deposited data

How the results depend on the processing

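The log2 fold changes of all 7 genes stayed below 0 under every alternative tried. The number of the 7 called, 1 by edgeR on all lungs, was 0 with DESeq2, without TMM and with a filter of 1 CPM in 3 lungs, 6 with no filter beyond 1 count in total, and between 0 and 2 with 1 lung left out. It stayed at 1 with limma-voom, with DESeq2 size factors, with scaling that left out the globins, and at an adjusted p of 0.1. The number of wider red cell genes called, 0, was 4 with no filter (Alas1, Tfrc and Trim10 among them) and between 0 and 1 with 1 lung left out. Over all genes the count of 300 was 529 with DESeq2, 1109 with no filter, 548 at an adjusted p of 0.1, and between 65 and 621 with 1 lung left out. The scalings shifted the median log2 fold change of all genes by less than 0.01. The cause of these changes was not tested.

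The replicate numbers share only a number: deviations of same-numbered R/R and WT lungs correlated at -0.014, -0.0036 and -0.015. With the replicate number as a block, 3 of the 7 genes were called (Hba-a1, adjusted p = 0.0133; Hba-a2, 0.0328; Hbb-bs, 0.0345, all by edgeR), 446 genes in all, and 0 of the wider red cell genes. No lung correlated best with its own number. With protein-coding counts as the denominator, the share held by the 7 genes ran from 0.125% to 0.339%. Depth limits Slc4a1 most, with 4 counts in R/R replicate 1.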

Other observations

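Among the genes most like the 7 were Speg and Ldb3, which encode proteins of striated muscle. A list of 15 cardiac muscle genes was therefore looked at after these values were seen; 13 were tested and none was called (edgeR's test; 6 had an unadjusted p under 0.05), with a median log2 fold change of -0.99. Their average deviation from each gene's mean log2 CPM was -1.02, -0.26 and 0.37 in R/R replicates 1, 2 and 3 and 0.70, 1.41 and -1.21 in WT replicates 1, 2 and 3. Apart from WT replicate 3, the lowest lung here, the order of the lungs was that of the average of the 7 genes. Myh6, the cardiac myosin heavy chain, was at 3.16, 14.4 and 29.7 CPM in R/R and at 56.2, 98.1 and 1.75 CPM in WT lungs. Their summed level ran from 123 to 197 CPM in R/R and from 133 to 353 CPM in WT lungs. How this relates to the globin values was not tested.

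Slc40a1, the iron exporter ferroportin, was named after its values were seen. It was at 17.0, 14.8 and 13.8 CPM in R/R and at 19.0, 23.2 and 19.6 CPM in WT lungs, with a log2 fold change of -0.44 (SE 0.11, adjusted p = 0.0820 by edgeR's test), and the genotypes did not overlap. Trim10, a gene of late red cell precursors, had 1, 1 and 7 counts in R/R and 12, 21 and 5 counts in WT lungs, and was left out of the test by the filter on low counts.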
